A study of Drosophila melanogaster with 12 samples.

Results

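The Oregon R (OreR) second legs were used to set the expression level of each gene beside the open chromatin at its locus. Members are the genes that stood alone under a single symbol in all 3 OreR expression files, which holds for 12256 of the 17604 symbols found in these files (69.6%). The other 5348 symbols were joined with a neighbouring gene in at least 1 library and have no value of their own. Each gene was classed by its OreR mean FPKM (fragments per kilobase of transcript, scaled to the mapped fragments of each library) as at or below 1, 1 to 10, 10 to 100 or above 100, and 60% of the genes fell in the lowest class. Peaks of open chromatin were then counted where they touched the locus given in the expression files, extended by 500 bp on either side.

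The study examined how trichomes, the hair-like outgrowths of epidermal cells, are patterned on the legs of *Drosophila melanogaster*. Second (T2) legs came from pupae aged 20 to 28 h APF (after puparium formation) at 25 °C, with about 80 pupae pooled in each replicate. OreR is a wild-type laboratory strain with a small naked valley, a patch of the femur without trichomes, and eworo, which carries ebony[4], white ocelli[1] and rough[1], has a large one. Each strain had 3 RNA-Seq libraries and 3 ATAC-Seq samples, and the ATAC-Seq reads were pooled into 1 peak list per strain, so that peaks have no replicate spread.

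In ATAC-Seq a transposase inserts into DNA that is not wrapped in nucleosomes, and clusters of insertions mark promoters and enhancers. Active promoters are commonly open, whereas enhancers can lie far from the gene they serve, inside other genes, and can be open in cells where that gene is off. A leg is a mixture of epidermis, muscle, neurons, glia, tracheae and blood cells, so a peak and a transcript at the same locus need not come from the same cell.

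The OreR list held 42015 peaks from 56972082 tags. Peak height is given as pileup, the number of tags stacked at the summit, which ran from 41 to 100 with a median of 61. Peaks in the upper quartile, with a pileup of 71 or more, are called high here, and there were 10832. All 7 markers of leg epidermis were above 1 FPKM, among them *Dll* (119, 81.8 and 137 FPKM in OreR replicates 1 to 3) and *dac* (105, 114 and 128 FPKM), transcription factors of the distal and middle leg. Markers of muscle (5 of 5), neurons (4 of 5), glia (1 of 1), tracheae (2 of 2), haemocytes (2 of 3) and fat body (2 of 3) were also above 1 FPKM, while none of the 6 markers of eye, germ line and gut was. The wing gene *vg* was listed at 0.521, 139 and 0.961 FPKM, and it was joined with another gene in at least 1 library. The same joining held for *Antp* and *grh* of the epidermis, *Mhc*, *Act57B* and *Tm1* of muscle and *nSyb* and *futsch* of neurons. It also held for *trh* and *btl* of tracheae, *NimC1* and *srp* of haemocytes, *vas* of the germ line and *alphaTry* of the gut. Values of joined genes may not be theirs alone, and *Hml*, the haemocyte marker measured alone, had 0.293, 0 and 0 FPKM. Log2 values of the libraries correlated with r of 0.882 to 0.901 across genes, which are not independent replicates, and 4703 to 4775 members were above 1 FPKM in each.

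Over all genes, the share with open chromatin was higher in each class of higher expression, and the classes differed most below 10 FPKM. A peak was missing from 3773 of the 7359 genes at or below 1 FPKM (51.3%), from 221 of 1557 genes at 1 to 10 FPKM (14.2%), from 121 of 2807 genes at 10 to 100 FPKM (4.31%) and from 11 of 533 genes above 100 FPKM (2.06%). Over all genes the share without a peak was 33.7%, and 66.3% had at least 1. When each library set the classes by itself, the share with a peak was 49.6 ± 0.10% at or below 1 FPKM, 85.7 ± 0.52% at 1 to 10, 95.6 ± 0.047% at 10 to 100 and 98.1 ± 0.35% above 100 FPKM (SD, n = 3 libraries). Neighbouring classes differed by more than the libraries did. Among protein-coding genes alone the share with a peak was 49.5, 88.7, 98.3 and 98.1%, so it was no higher above 100 FPKM than at 10 to 100. The 121 genes at 10 to 100 FPKM without a peak included 47 rRNA genes and 18 genes on unplaced sequences. Between the highest and the lowest class the share with a peak differed by 49.2 percentage points (SD 0.29 over the libraries). No p-value is given, because genes are not replicates and the peaks come from a single list.

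High peaks followed the same order. At least 1 high peak was present at 16.4% of genes at or below 1 FPKM, at 49.6% of genes at 1 to 10, at 72.2% of genes at 10 to 100 and at 77.5% of genes above 100 FPKM, against 36.1% of all genes. Among genes with a peak, the median of the highest pileup was 63, 73, 76 and 77 tags in the 4 classes. The number of peaks did not keep increasing: the median was 0, 3, 3 and 3 peaks per gene, and the mean was 1.14, 4.05, 5.17 and 4.23. The covered share, which is the part of the extended locus under peaks, had medians of 0, 7.39, 10.97 and 14.4%.

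**Figure D1:**
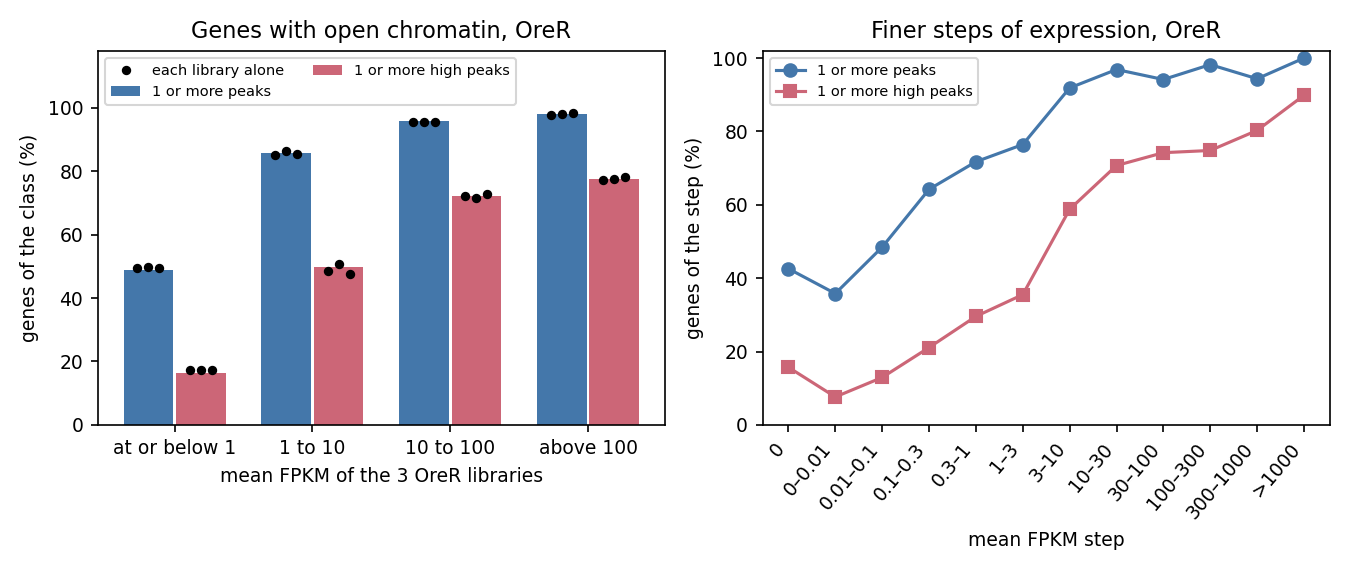
Left, share of genes (%) with 1 or more peaks (blue bars) and 1 or more high peaks (red bars) in each class of mean FPKM in OreR, with points for the classes set by each library alone. Right, the same shares in finer steps of FPKM. The share with a peak is 48.7% at or below 1 FPKM and 97.9% above 100 FPKM.

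In finer steps the share of genes with a peak was 42.6% for the 3542 genes listed at 0, 35.8% above 0 and up to 0.01 FPKM, 48.5% up to 0.1, 64.2% up to 0.3 and 71.7% up to 1 FPKM. It reached 76.4% at 1 to 3 FPKM, 91.9% at 3 to 10 and 96.9% at 10 to 30 FPKM. Above this it did not keep increasing, with 94.2% at 30 to 100, 98.2% at 100 to 300 and 94.4% at 300 to 1000 FPKM. All 69 genes above 1000 FPKM had a peak. The genes listed at 0 thus lay above the step next to them, and an exact 0 in these files can be a failed estimate: *mRpL10* and *mRpL35*, which encode subunits of the mitochondrial ribosome that every cell uses, were listed at 0 in each OreR library. Of the genes at or below 1 FPKM, 3541 (48.1%) were listed at 0 in all 3 libraries, and without them the share in this class with a peak was 54.5%.

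Across all 12256 genes mean FPKM and the number of peaks had a Spearman rho of 0.58, and mean FPKM and the highest pileup one of 0.57. Among the 4897 genes above 1 FPKM these fell to 0.14 and 0.26, while rho with the covered share was 0.33. These values describe genes that share libraries and peaks, and longer loci hold more peaks (rho of 0.60 between the number of peaks and locus length).

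Locus length was therefore held apart from expression. Median length was 1023 bp at or below 1 FPKM, 3219 bp at 1 to 10, 3219 bp at 10 to 100 and 2206 bp above 100 FPKM. Among genes of up to 1 kb, a peak was present at 39.5% of those at or below 1 FPKM, at 47.7% of those at 1 to 10, at 69.4% of those at 10 to 100 and at 94.0% of those above 100 FPKM. At 10 to 100 FPKM 81 of these 265 short genes had no peak, and 47 of the 81 were copies of the 5S rRNA gene. The share of 69.4% is therefore lowered by repeated genes. Among genes above 20 kb the same shares were 92.5, 98.9, 100 and 100%. Long genes thus nearly always had a peak, and the classes parted there in the number instead, with means of 6.54, 14.3, 19.5 and 22.1 peaks per gene. The order of the classes in mean number of peaks held in all 5 ranges of length.

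**Figure D2:**
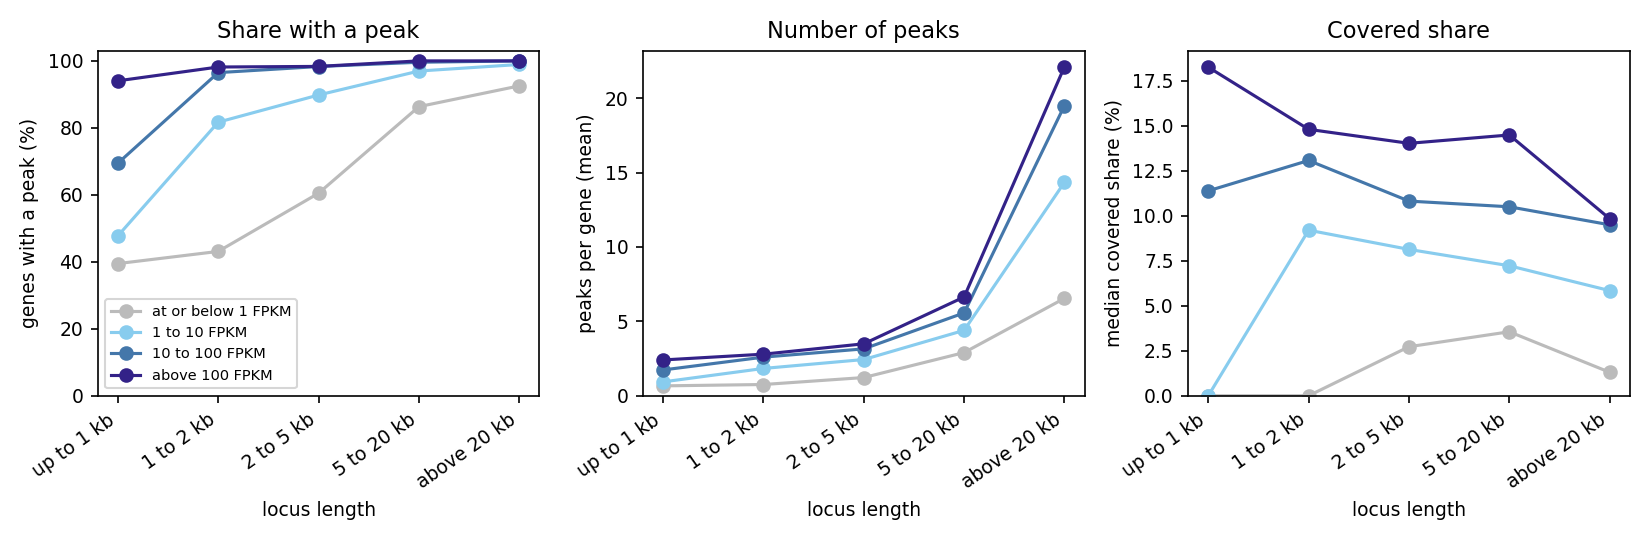
Share of genes with a peak (%), mean number of peaks per gene and median covered share (%) against the length of the locus, with a line for each class of mean FPKM in OreR. In genes of up to 1 kb 39.5% of those at or below 1 FPKM and 94.0% of those above 100 FPKM have a peak, and above 20 kb the lines separate in the number of peaks.

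A peak within 500 bp of either end of the locus was present at 44.5, 80.7, 94.5 and 96.6% of genes from the lowest to the highest class. In loci of up to 1 kb every counted peak lies this close to an end by construction. Seen from the peaks, 5.24% touched a gene above 100 FPKM, 31.0% touched none above 100 but one at 10 to 100 FPKM, 12.3% reached no higher than 1 to 10 FPKM and 13.1% touched only genes at or below 1 FPKM. The remaining 38.3% (16091 peaks) touched no member, and these include the loci of joined genes. The share of high peaks was 36.7, 32.1, 21.4 and 16.1% in the first 4 groups and 24.0% among peaks at no member.

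The kind of gene mattered within the lowest class. Of its 4695 protein-coding genes 49.5% had a peak, and of its 1635 long non-coding RNA genes 46.1%. A peak was present at 217 of 275 tRNA genes (78.9%), against 40 of 152 miRNA genes (26.3%) and 31 of 141 snoRNA genes (22.0%). The libraries were made for mRNA, and tRNAs are short transcripts of RNA polymerase III that such libraries measure poorly. Also within this class, 24 of 32 genes (75%) on chromosome 4, the smallest autosome, had a peak, and 4 of 67 (5.97%) on the Y chromosome. A peak at a low gene can also touch a neighbour. Where another entry above 10 FPKM lay in the extended locus, 61.3% of the genes at or below 1 FPKM had a peak, and 43.0% did where none lay there. Over all genes, 43.2% had such an entry. For 2327 of the 3586 low genes with a peak, at least 1 peak lay apart from other entries. Apart here means more than 500 bp from any other named entry above 1 FPKM under the same name in at least 2 OreR libraries. An entry whose joined name changed between libraries could be missed, so such counts can be too high. Among small non-coding RNA genes at or below 1 FPKM, 305 had a peak and 116 had one apart from other entries.

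Gene lists differed in how level and peaks went together. Of 51 cytosolic ribosomal protein genes, 44 were above 100 FPKM, and every one above 1 FPKM had a peak. *RpL41* (11690, 13896 and 11020 FPKM) had 3 peaks and *RpL39* (17460, 10013 and 8335 FPKM) had 1 peak of 59 tags, below the high limit. All 42 mitochondrial ribosomal protein genes had a peak, although their median was 30.3 FPKM against 2599 FPKM in the cytosolic list. The median highest pileup was 73 tags in the mitochondrial list and 75 tags in the cytosolic one, so that lists far apart in expression had peaks of like height. Pileup is capped at 100, which narrows the differences in height that can be seen. The 18 proteasome subunits above 100 FPKM had a peak, and so did 4 of the 14 subunit genes at or below 1 FPKM, a group that holds testis-specific paralogues. Of 43 histone genes, 40 were at or below 1 FPKM and 2 of these had a peak. The replacement histones *His4r* (2315, 2431 and 2255 FPKM, 3 peaks), *His2Av* (366, 355 and 387 FPKM, 5 peaks) and *His3.3A* (240, 278 and 222 FPKM, 2 peaks) were the others.

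Many developmental transcription factors had peaks although they were at or below 1 FPKM. All 7 Hox genes that could be measured, which give segments their identity, had a peak and a high peak. *Scr* (9.74, 6.42 and 14.5 FPKM, 12 peaks) and *Ubx* (12.6, 5.77 and 8.04 FPKM, 30 peaks) were expressed, and the other 5 were at or below 1 FPKM. In comparison, 48.7% of all genes at or below 1 FPKM had a peak and 16.4% a high peak. Of 34 segmentation and other patterning factors at or below 1 FPKM, 30 had a peak and 24 a high peak. *eya*, a factor of eye development, had 0.261, 0.206 and 0.154 FPKM with 7 peaks, of which 3 were high, and *otp* had 0.0172, 0.0824 and 0.0578 FPKM with 5 peaks, of which 2 were high. Only 1 of 16 leg patterning factors was at or below 1 FPKM: *rn* had 0.938, 0.311 and 1.17 FPKM with 12 peaks. Loci of the Hox and leg patterning lists are long, with medians of 26862 and 20166 bp, against 1611 bp over all genes. The median number of peaks per gene was 9 in both of these lists, against 10 over all genes above 20 kb and 1 over all genes. Of the genes at or below 1 FPKM above 20 kb, 92.5% had a peak. The whole list of segmentation and other patterning factors had a shorter median locus, of 4784 bp. Among genes at or below 1 FPKM of 2 to 5 kb, 60.5% had a peak and 20.1% a high one. Among the leg patterning factors, *hth*, which patterns the proximal leg, had 62 peaks at 4.50, 1.30 and 9.78 FPKM.

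Few low genes of taste and smell and of the cuticle had a high peak, and few low genes of neuronal surfaces were measured. Of 153 chemosensory receptor genes, 151 were at or below 1 FPKM and 41 of these (27.2%) had a peak and 9 a high one, against 48.7% and 16.4% of all genes in that class. Their median locus was 1691 bp long. Among 18 genes at or below 1 FPKM of the dpr and DIP families, cell surface proteins that label neurons, 15 had a peak and 2 a high one. With 18 genes this is not far from the 16.4% of all genes in that class. The median locus over the whole list was 21020 bp, and 35.1% of all genes at or below 1 FPKM above 20 kb had a high peak. Of 74 cuticle protein genes at or below 1 FPKM, 31 had a peak and 2 a high one, while *Cpr72Ea* (3696, 2982 and 3092 FPKM) had 2 peaks of which 1 was high. The muscle actin *Act87E* had 165, 188 and 156 FPKM with 3 peaks and none high. A peak was missing from 3 of the 11 muscle genes above 1 FPKM, and from 353 of all 4897 genes above 1 FPKM (7.21%). With 11 genes this count is too small to tell muscle genes apart from others.

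A peak was missing from 132 genes above 10 FPKM, 11 of them above 100 FPKM. A further 56 genes above 100 FPKM had a single peak. Of the 132 genes, 56 code for proteins, 47 are copies of the 5S rRNA gene, 18 lie on unplaced sequences and 11 are other RNA genes and rRNA pseudogenes. *Hsp26* (FBgn0001225, chromosome 3L from 9376418 to 9377427 in release 6 of the genome), a small heat shock protein, was the highest with 1141, 0 and 544 FPKM in OreR replicates 1 to 3, and 1451, 927 and 1684 FPKM in eworo. The 0 in OreR replicate 2 may be a failed estimate. *Hsp70Aa*, an inducible chaperone with near-identical copies among which the reads could be split, had 247, 72.1 and 38.4 FPKM in OreR. *Hsc70-4*, a heat shock cognate that is always on, had 1763, 1132 and 1318 FPKM with 5 peaks, of which 3 were high.

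The other genes of this group varied less between libraries. *CG13056* had 491, 428 and 462 FPKM in OreR and *Obp99c*, of the odorant-binding protein family, had 324, 443 and 270 FPKM. *NimC3*, a Nimrod family gene related to phagocytosis receptors of blood cells, had 113, 162 and 122 FPKM, and its nearest peak, of 89 tags, began 501 bp from the locus, just outside the extension. *TMS1* (104, 107 and 93.6 FPKM) and *CG13046* (109, 105 and 103 FPKM) lay just above the limit of 100 FPKM, and *snRNA:U2:34ABc* (mean 94.1 FPKM) and *CG8012* (mean 79.5 FPKM) just below it. *CG3760*, *CG14629* and *CG4250* completed the protein-coding genes, at means of 166, 114 and 107 FPKM. The nearest peak lay 501 to 3684 bp from these 11 loci with a median of 1062 bp, within 2000 bp for 10 of them, and it was high for 5. Their loci were short, from 214 to 3576 bp with a median of 1010 bp.

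**Figure D3:**
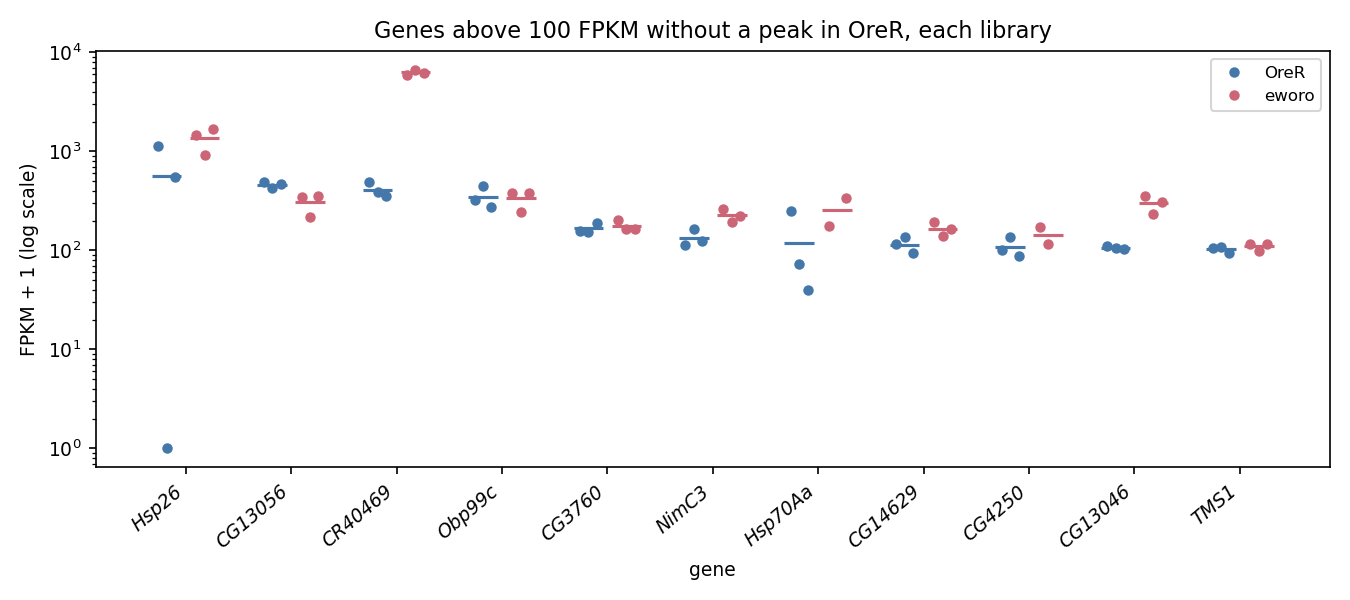
FPKM + 1 (log scale) of the 11 genes above 100 FPKM without a peak in OreR. Points are libraries, OreR in blue and eworo in red, and lines are means. *Hsp26* is listed at 0 in OreR replicate 2, and *CR40469* is the gene whose strains lie farthest apart (351 to 485 FPKM in OreR, 5874 to 6673 FPKM in eworo). Values that the authors' program marked as failed are left out.

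The 56 protein-coding genes above 10 FPKM without a peak had a median locus of 1229 bp, against 3147 bp for those with a peak, and 36 were at most 2000 bp long. Their nearest peak lay at a median of 1354 bp, and for 34 of them within 2000 bp. *NimC2*, from the same family as *NimC3*, had 54.0, 67.8 and 53.5 FPKM. *Act88F* and *Act79B*, actins of flight and other adult muscles, had 28.1, 0 and 20.1 FPKM and 9.98, 11.3 and 9.05 FPKM. *Fbp1*, a fat body receptor for storage proteins, had 10.6, 33.6 and 35.2 FPKM, the stress gene *TotA* had 10.1, 14.4 and 16.6 FPKM, and *CecB*, an antimicrobial peptide, had 7.61, 20.4 and 10.9 FPKM. In these bulk samples fewer cells of a type and less RNA per cell cannot be told apart. Within one region of chromosome 3L, from 16259037 to 16333782, *CG13053* (9060, 9671 and 7099 FPKM, 2 peaks) and *CG34247* (10532, 10301 and 8411 FPKM, 3 peaks) had peaks, whereas *CG13056*, *CG13046*, *CG13071*, *CG4950* and *CG13044* of the same region had none.

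The 47 copies of the 5S rRNA gene, which lie in a tandem cluster on chromosome 2R, had 70.9 to 86.5 FPKM in OreR replicate 1, 13.03 to 23.8 FPKM in replicate 2 and 78.6 to 99.1 FPKM in replicate 3. In eworo they had 18.6 to 28.8, 13.3 to 21.8 and 379 to 415 FPKM. These 47 copies lay close together within a library, and libraries of a strain did not overlap, apart from OreR replicates 1 and 3 and eworo replicates 1 and 2. Other copies were far lower: of all 98 measured 5S entries, 48 were above 10 FPKM. The 49 rRNA genes at or below 1 FPKM in OreR had a median of 0.197 FPKM. Of the 98 entries, 96 had no peak. Near-identical copies share reads in both assays, so their FPKM and the lack of peaks are uncertain, and the same holds for the 18 genes on unplaced sequences (17.9 to 101 FPKM in OreR replicate 1, 5.53 to 45.9 FPKM in replicate 2 and 17.7 to 101 FPKM in replicate 3).

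The opposite case, a gene at or below 1 FPKM with 5 or more high peaks, was met by 16 genes, 0.217% of that class, against 2.33% of all genes. The number dropped quickly with the limit set, from 1205 genes with at least 1 high peak to 107 with at least 3, 31 with at least 4 and 8 with at least 6. The 16 genes held 335 peaks, none of them shared between these genes, and 110 of the peaks were high. They were long, with a median locus of 49084 bp (1190 to 223710 bp), against 1023 bp for their class. By annotation 8 are long non-coding RNA genes and 7 code for proteins, and *iab-8* found no match in the annotation.

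**Figure D4:**
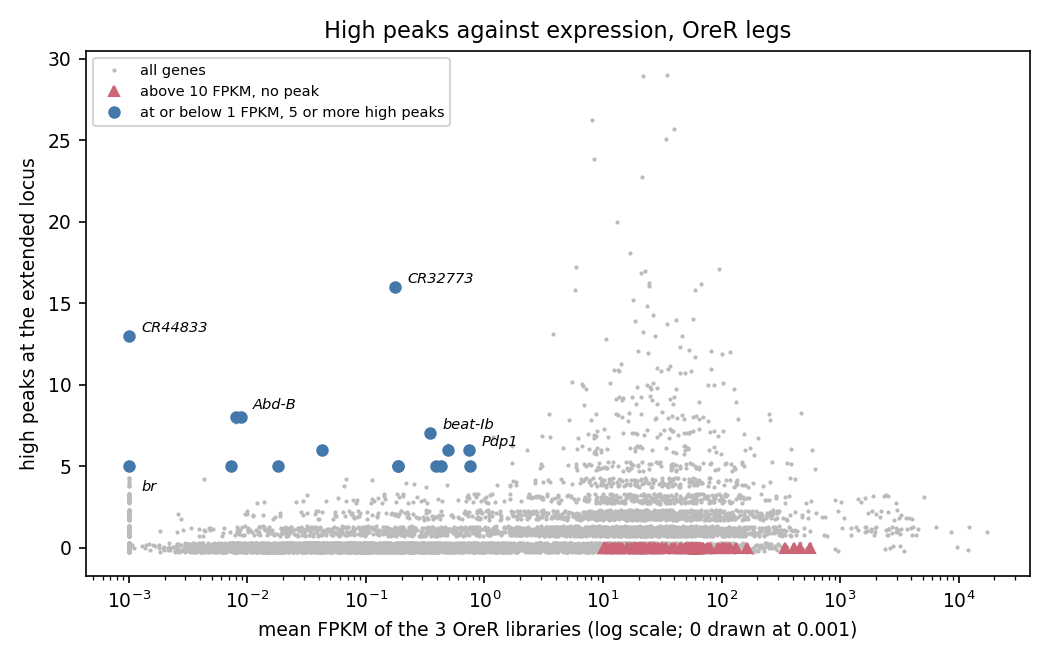
Number of high peaks at the extended locus against mean FPKM in OreR (log scale, genes at 0 drawn at 0.001). Grey points are all genes, spread slightly in height to show overlap, red triangles are the 132 genes above 10 FPKM without a peak and blue circles the 16 genes at or below 1 FPKM with 5 or more high peaks. *CR32773* has 16 high peaks and *CR44833* has 13.

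Among the 16 genes were 4 of the Hox complexes. *Abd-B* (FBgn0000015, chromosome 3R from 16927212 to 16972236), the Hox gene of the posterior abdomen, had 0.0132, 0.0040 and 0.0091 FPKM with 14 peaks, of which 8 were high and the highest had 90 tags. *pb*, the Hox gene of the mouthparts, had 0.0159, 0.0389 and 0 FPKM with 9 peaks, 5 of them high. The non-coding RNA gene *iab-8*, which lies between *abd-A* and *Abd-B*, had 0.0242, 0 and 0 FPKM with 19 peaks, 8 of them high. *bxd*, a non-coding RNA gene in the control region of *Ubx*, had 0.265, 0.153 and 0.142 FPKM with 9 peaks, 5 of them high. All 4 were near 0 in every OreR library. Every peak of these 4 genes lay apart from other entries. The remaining silent Hox genes *lab*, *Dfd* and *abd-A* had 6, 2 and 3 peaks with 2, 1 and 2 of them high.

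*CR44833*, a long non-coding RNA gene on chromosome X from 4956646 to 5063868, was listed at 0 in all 3 OreR libraries and had 44 peaks, of which 13 were high. Its locus runs into that of *ovo*, the gene of the trichome regulator Shavenbaby, which had 23.5, 9.62 and 26.1 FPKM. Of the 44 peaks 37 (11 of the 13 high ones) lay apart from the listed locus of *ovo* and from other entries. The paper describes enhancers of this regulator over a long region upstream of its gene, parts of it open in second legs. Which gene the 37 peaks serve was not tested. High peaks were crowded, with 8 of them between 87779 and 94749 bp from the start of the locus. The ratio of these 8 peaks to local background ran from 1.80 to 2.50, against a median of 2.14 over all OreR peaks. *ovo* itself had 10 peaks, of which 2 were high, and these 2 were also counted for *CR44833*. *br* (broad), a family of zinc finger factors induced by ecdysone in metamorphosis, was listed at 0 in all 3 libraries with 23 peaks, 5 of them high. All of its peaks lay within 500 bp of other expressed entries, among them a joined one that holds *CG3740* and *Mur2B* among others, at 33.3, 27.1 and 27.1 FPKM, and the 0 of *br* may be a failed estimate. *CR32773*, a non-coding RNA gene, had 0.190, 0.158 and 0.178 FPKM. Of its 86 peaks 30, and of its 16 high peaks 3, lay apart from other entries.

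**Figure D5:**
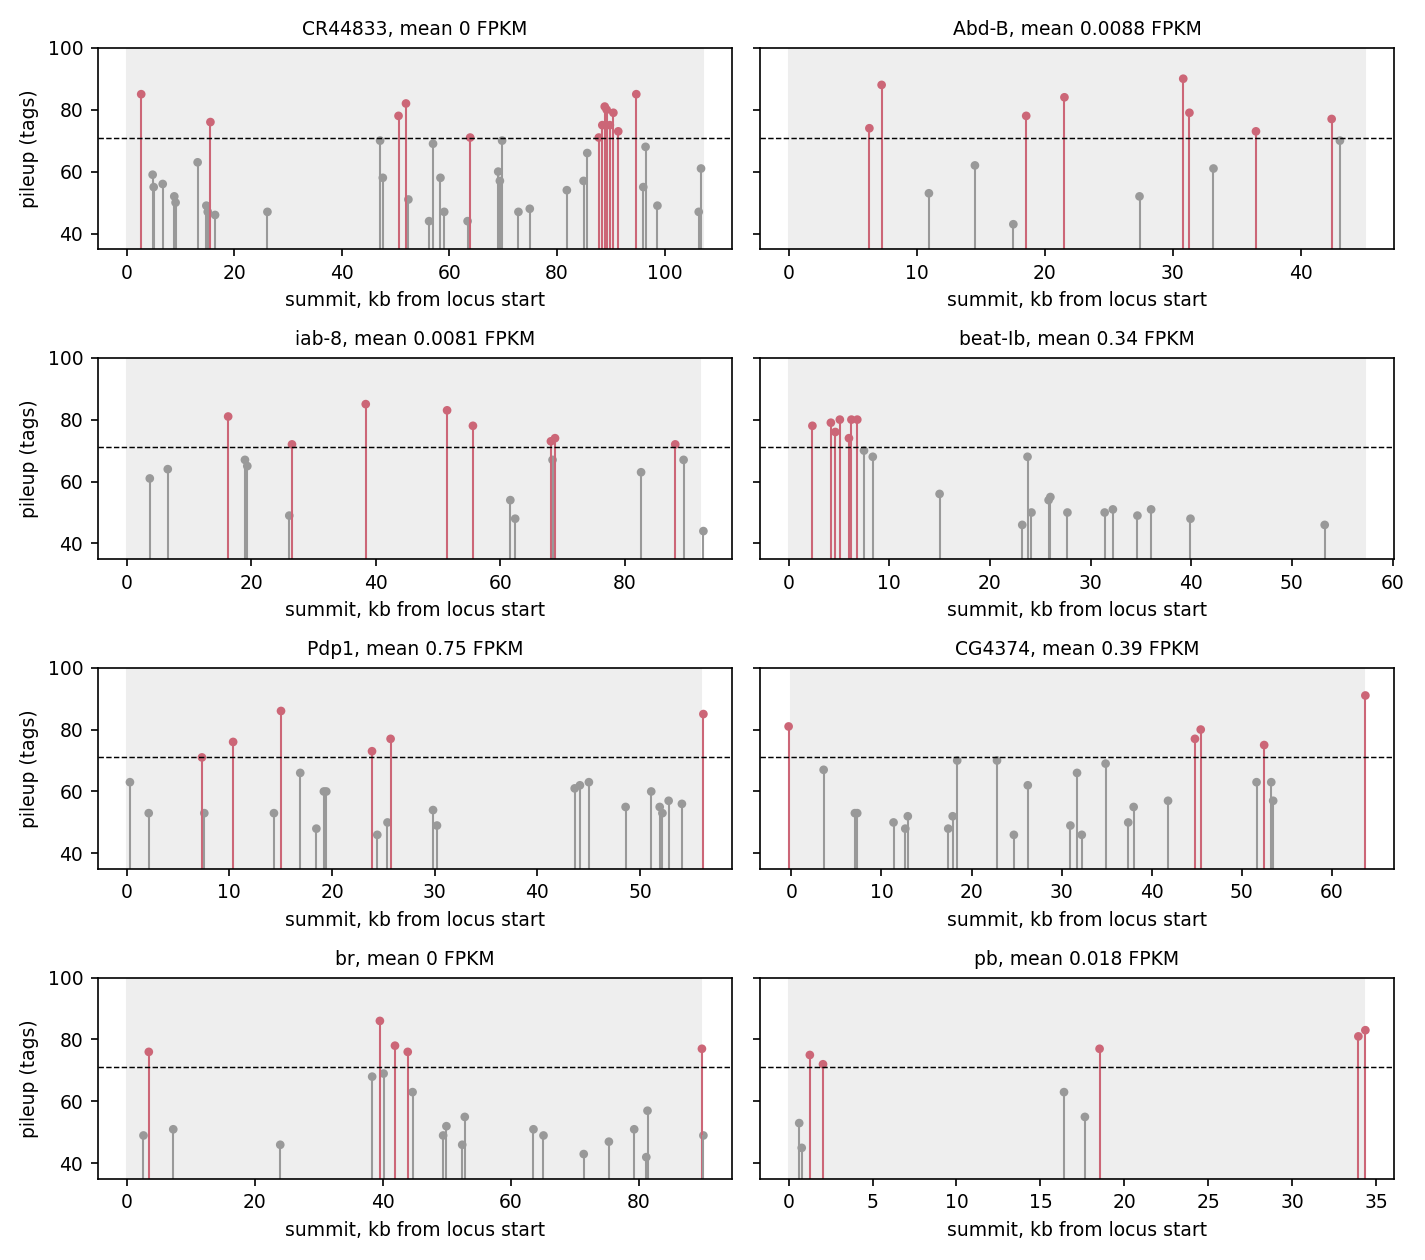
Pileup of each OreR peak (tags, axis from 35) against the distance of its summit from the start of the locus (kb) for 8 genes at or below 1 FPKM. Red peaks are high, at or above the dashed line of 71 tags, and the locus is shaded. In *CR44833* 8 high peaks lie within 6970 bp, and in *beat-Ib* all 7 high peaks lie near one end.

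The arrangement of peaks differed among the rest. *beat-Ib*, a member of the beaten path family of neuronal guidance proteins, had 0.321, 0.429 and 0.285 FPKM with 22 peaks, and its 7 high peaks all lay within 4459 bp. High refers to pileup alone, and the ratio of these 7 peaks to local background ran from 1.74 to 1.94. The median ratio over all OreR peaks was 2.14. *Pdp1*, a clock gene, had 0.802, 0.2997 and 1.14 FPKM with 27 peaks, of which 6 were high, spread over its locus. *CG4374* had 0.436, 0.266 and 0.464 FPKM with 27 peaks, and 1 of its 5 high peaks had 91 tags, the highest of the group. The short non-coding RNA genes *CR46084* and *CR44222*, of 1918 and 1190 bp, had 6 and 5 high peaks. The ratio of these high peaks to local background was also below the median, from 1.64 to 2.11 and from 1.64 to 1.99. For the high peaks of *Abd-B* it ran from 2.99 to 3.68. For *CR46084* all 7 peaks lay within 500 bp of other entries, and it sits inside the expressed polarity gene *scrib* (71.5, 74.2 and 87.1 FPKM). *CR45224* sits likewise inside *SKIP* (20.1, 13.5 and 29.5 FPKM). Of the 16 genes, 11 had 5 or more high peaks apart from other entries, and 3 had none there. *CR44222* is counted among the 11, although another entry (*kis* in replicate 1) overlapped its extended locus. The highest such entry had 54.3, 20.3 and 71.1 FPKM in OreR replicates 1 to 3, so the 11 may be too many. Next to the limit in expression stood *Pdp1* and *CG42346* (means of 0.746 and 0.756 FPKM) inside it and *dsx*, the sex determination factor, and *Ca-beta* (1.17 and 1.69 FPKM, 7 and 6 high peaks) outside it. A further 15 genes at or below 1 FPKM had exactly 4 high peaks, *sim*, a factor of the nervous system midline, among them.

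The eworo libraries and peaks, made in the same way, were read at the same loci. Of the 132 genes above 10 FPKM without an OreR peak, 112 (84.8%) had no eworo peak either, as did 86.2% of all genes without an OreR peak, 3.47% of all genes above 10 FPKM and 31.3% of all genes. Of the 11 genes above 100 FPKM 5 had none, and of the 56 protein-coding genes 39 had none. Where eworo had a peak at these protein-coding genes (17 genes) its highest pileup had a median of 51 tags, and it reached the eworo upper quartile of 70 tags only at *NimC3*, with 85 tags. Of the 16 genes at or below 1 FPKM with 5 or more high OreR peaks, 11 had 5 or more high peaks in eworo too, against 87.1% of all genes with 5 or more high OreR peaks and 2.57% of all genes, and the other 5 had 3 or 4. In expression 15 of the 16 were at or below 1 FPKM in eworo, against 96.4% of all genes at or below 1 FPKM in OreR. With 1 peak list per strain these shares have no replicate check.

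Over the 11236 genes measured alone in all 6 libraries, the share with a peak from the lowest to the highest class was 48.5, 85.5, 95.3 and 98.0% in OreR and 52.0, 85.3, 97.3 and 89.8% in eworo, each strain classed by its own FPKM. Of the 52 genes without a peak in the highest class of eworo 47 were 5S rRNA genes, which were high in eworo replicate 3 only. Without the 5S genes 98.9% of the 460 eworo genes above 100 FPKM had a peak.

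The genes above 10 FPKM without a peak were compared between the strains for their expression. In limma, 123 of the 132 could be compared. At an adjusted p under 0.05 in limma, none was higher and 3 were lower in OreR than in eworo. Of all 4365 tested genes 0.916% were higher, 1.83% lower and 2.75% called in either direction. An unadjusted p under 0.05 in limma was met by 20 of the 123 genes, against 681 of the 4365. The share called among the 123 was thus near that of all tested genes. *CR40469*, a long non-coding RNA gene on chromosome X, had 485, 390 and 351 FPKM in OreR, against 5874, 6673 and 6228 FPKM in eworo, so that the strains did not overlap. Its log2 difference was -3.95 ± 0.14 (SE, limma, adjusted p = 0.00019), and eworo had 1 peak of 68 tags there. The OreR libraries had 109, 105 and 103 FPKM of *CG13046*, against 354, 234 and 306 FPKM in the eworo libraries (-1.48 ± 0.15 on the log2 scale, limma, adjusted p = 0.011), and eworo had 1 peak of 53 tags. For *CG4525* the values were 11.8, 11.3 and 10.1 FPKM in OreR libraries, against 22.6, 21.0 and 19.5 FPKM in those of eworo (-0.88 ± 0.10, limma, adjusted p = 0.016), and eworo had 1 peak of 46 tags. None of the 3 eworo peaks reached the high limit of 70 tags in eworo, and the lack of an OreR peak is what these genes were chosen for. Without a library the adjusted p in limma rose above the threshold for *CG13046* (0.061 without eworo replicate 3, 0.058 without OreR replicate 3) and for *CG4525* (0.064 and 0.061 without eworo replicates 1 and 3, 0.054 and 0.068 without OreR replicates 1 and 3). Without OreR replicate 2, in which repeated RNA genes were low, 13 more genes were higher in OreR by limma, namely 11 genes on unplaced sequences and 2 rRNA pseudogenes. In that fit 16 of the 123 genes were called in either direction. Over all 4387 genes tested in it 46 were higher in OreR and 105 were called. None of the 16 silent genes passed the filter of a mean above 1 FPKM. With no filter all 16 could be compared and limma called none at an adjusted p under 0.05, 2 at an unadjusted p under 0.05. Over all 11230 genes of that fit limma called 112, and 1152 had an unadjusted p under 0.05. The 16 genes were chosen for low OreR values, which limits the differences that limma could call. The p-values measure the spread between these libraries only, which may be partly technical.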

How the data were processed

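RNA-Seq of second legs (a stranded mRNA kit) was aligned by the authors with TopHat2 2.1.1 to a release 6 genome, and the deposited values are FPKM per gene and library from Cufflinks 2.2.1, not scaled between libraries. The 6 OreR values that Cufflinks marked as failed were left out. Fragment counts are not in these files, so the depth per library is unknown. ATAC-Seq reads were filtered for quality and duplicates and pooled by strain, and the authors called peaks with MACS2 (version 2.1.1.20160309 in the header) at a q-value of 0.01, without a control and with 1 tag per position and strand. The deposited list gives the signal (pileup), the fold (ratio) to local background and -log10 q of each peak.

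Loci count from 0 in the files and 1 was added to the start. Where libraries gave different loci (1240 genes) the widest was used. High peaks were the upper 25% by pileup. The biotype came from RefSeq (12174 genes matched). Log2(FPKM + 1), divided by a median ratio per library, was compared between OreR and eworo with limma 3.58.1 (R 4.3.3) for genes with a mean above 1 FPKM and Benjamini-Hochberg adjustment at 0.05. Such a log2 difference understates the change of low genes. Tables were made with pandas 2.3.3 and numpy 2.4.6 in Python 3.11.15 and figures with matplotlib 3.10.9. The members and lists were chosen with earlier results of these data known. Genes were named by rank (highest FPKM without a peak, most high peaks at or below 1 FPKM, highest level or most peaks in each list, and those next to a limit), and *eya*, *otp*, *rn*, *mRpL10*, *mRpL35*, *lab*, *Dfd*, *abd-A*, *sim*, *ovo*, *scrib*, *SKIP*, *CG13053*, *CG34247*, *CG4525*, *CG4950*, *CG13044*, *NimC2*, *Act88F*, *Act79B*, *Fbp1*, *TotA* and *CecB* were named after their values were seen. Alternatives covered the extension of the locus, peak strength, overlap, the libraries used and neighbouring entries.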

Additional observations from a re-analysis of the deposited data

How the results depend on the processing

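The share of genes with a peak was higher above 100 FPKM than at or below 1 FPKM under all alternatives run. The difference of 49.2 percentage points became 62.1 with no extension of the locus, 28.7 with an extension of 2000 bp, 59.8 with peaks of -log10 q of 5 or more, 56.5 for genes with no other entry in the extended locus, 51.7 with 50% of the peak inside, 49.6 over the part common to the OreR loci, 48.7 with the median of the libraries and 48.7 on the main chromosomes, and 48.9 to 49.2 when each OreR replicate was left out. With alternatives chosen after seeing the data it was 48.6 for protein-coding genes, 43.5 without genes listed at 0 in every OreR library and 40.05 with peaks apart from other entries above 1 FPKM. The median difference of 3 peaks between 10 to 100 FPKM and at or below 1 FPKM became 2 with no extension, 2 without genes at 0 and 1 with peaks apart from other entries. The 16 silent genes with 5 or more high peaks became 59 with an extension of 2000 bp, 3 with no other entry in the locus and 7 among protein-coding genes (17 to 19 without a replicate). They were 12 with no extension, 11 with peaks of -log10 q of 5 or more and 22 with the median of the libraries. The 11 genes above 100 FPKM without a peak became 23 with no extension, 1 at 2000 bp, 25 with stricter peaks, 3 with no other entry and 151 with peaks apart from other entries (10 to 11 without a replicate).

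In limma 120 genes were called, 22 with the replicate block and 55 to 151 without a replicate. Among genes above 10 FPKM without a peak 3 were called, 1 with the replicate block (*CR40469*) and 1 to 16 without a replicate. Deviations of libraries with the same number correlated at -0.056, -0.117 and 0.046, so the numbers do not pair the samples. No paired analysis was possible for the peak counts because peaks were pooled. The planned comparison of the 16 silent genes between strains gave no value under the main filter, since none passed it.

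Pileup is capped at 100 and comes from 1 pooled list, a peak is missing only at the threshold used, and no strand was used, so that a peak at overlapping genes was counted for each.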
